A study of Mus musculus with 20 samples.

Results

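The genes described here are 32 mouse genes of the ATF4 response, of amino acid supply and of one-carbon metabolism. They are named by a list and were matched to the arrays by exact gene symbol, with the probe set of highest mean kept where a gene had several. Of the 32, 31 had a probe set of their own symbol among 22180 genes, and 30 were bright enough to be tested among 16638 genes. Pycr1 was not analysed here, and Cth (cystathionine gamma-lyase), at a mean log2 signal of 3.50, lay under the brightness limit of 3.86. Expression was read on 20 whole-transcript arrays as log2 signal, on which a difference of 1 stands for a factor of 2. Common myeloid progenitors (CMPs), which can form granulocytes, monocytes, platelets and red cells, and granulocyte-macrophage progenitors (GMPs), which are further along toward granulocytes and monocytes, were sorted and lysed. Lineage-negative (Lin-) marrow cells, which lack markers of mature blood cells, were cultured after sorting with macrophage colony-stimulating factor (M-CSF) at 10 ng/ml for 12 h. All mice were female and on a C57BL/6 background. Wild-type (WT) mice were compared with CreER-Rptor-flox/flox mice, which carry a tamoxifen-dependent Cre recombinase and floxed alleles of Rptor and are called CreER-Raptor, as in the labels. CMPs and GMPs had 3 arrays a genotype and Lin- + M-CSF cells 4. The labels give neither the promoter of the CreER transgene, nor whether or when Cre was induced, nor whether WT mice carried Cre, nor if each replicate was a separate animal. The p-values therefore cover only sample-to-sample spread, part or all of which may be technical.

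ATF4 is a transcription factor whose protein is made when eIF2 kinases sense a lack of amino acids, haem shortage, viral RNA or misfolded protein, and mTORC1 activity is also known to raise it. With partners of the C/EBP family it binds elements in genes for amino acid transporters, for asparagine, serine and proline synthesis, for mitochondrial folate enzymes and for stress effectors such as CHOP (Ddit3), TRIB3, CHAC1 and Sestrin2. Serine and glycine feed carbon into the folate cycle, which supplies purines, thymidylate and methyl groups. Raptor, the product of Rptor, is the scaffold of mTORC1, the kinase complex that couples amino acids to growth.

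Rptor itself, which checks the labels, read 8.72, 8.51 and 8.68 in WT CMPs and 8.20, 8.37 and 8.45 in CreER-Raptor CMPs, the only population in which the genotypes did not overlap. It was not called in any population, with changes of -0.29 in CMPs, -0.17 in GMPs and -0.18 under M-CSF (limma adjusted p 0.163, 0.465 and 0.305), and a two-sided exact permutation test gave p = 0.1, 0.5 and 0.143, where 0.1 is the smallest p that 3 arrays against 3 allow. The sources used here do not say which exons the probe set reads, so it may lie outside the floxed part. Arrays of a group correlated at 0.978 to 0.993, and the Lin- + M-CSF groups spread more (median SD over genes 0.177 and 0.167) than the CMP and GMP groups (0.110 to 0.132). The list of progenitor markers held 6 genes (Kit, Cd34, Mpo, Elane, Prtn3 and Ctsg). Their mean ran from 11.28 to 11.81 on CMP and GMP arrays and from 10.74 to 11.22 on Lin- + M-CSF arrays. In CreER-Raptor CMPs 4 of them were lower (Cd34 at -1.08, Elane, Prtn3 and Mpo) and Kit was higher (0.42); in GMPs Cd34 was lower (-1.37), and under M-CSF Kit was higher (0.99). Of 5 T and NK cell genes, Cd3e, Cd3g and Cd8a were higher in WT Lin- + M-CSF cells than in WT CMPs, by 2.50 to 2.75, and Nkg7 was lower (-1.13). Cd3e averaged 7.54 in WT and 8.27 in CreER-Raptor cultures, against 4.76 to 4.94 in the sorted progenitors, and by genotype under M-CSF 1 of the 5, Cd3g, was called (0.92).

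In CreER-Raptor CMPs 7 members rose, namely Asns, Glul, Mthfd1, the transporter genes Slc7a5 and Slc3a2 and the stress genes Ddit3 and Ddit4, while Gpt2 fell. In GMPs Glul and 3 transporters rose while Mthfd2, Sesn2 and Gpt2 fell. Under M-CSF no member rose and 8 fell, all of them asparagine, serine or folate enzymes or the stress factors Atf5 and Trib3. A gene is called here when its adjusted p (limma, Benjamini-Hochberg over all 16638 genes) is under 0.05. In CMPs 8 of the 30 tested members were called, 7 higher and 1 lower, which is 26.7% against 11.4% of all genes tested (6.01% higher, 5.44% lower). In GMPs 7 were called, 4 higher and 3 lower, or 23.3% against 11.9% (4.37% higher, 7.53% lower). Under M-CSF the 8 called make 26.7% against 12.5% (6.82% higher, 5.73% lower). The median change of the members was -0.02 in CMPs, 0.11 in GMPs and -0.17 under M-CSF, against -0.01, 0.02 and 0.01 over all genes tested. By the cruder measure of arrays that do not overlap between genotypes, 13 members were apart in CMPs, 14 in GMPs and 5 under M-CSF, where 30.8%, 32.4% and 13.9% of all genes were apart. The number of limma calls was 5 in CMPs without WT replicate 1, 3 in GMPs without CreER-Raptor replicate 1 or WT replicate 2, 14 in GMPs with limma's array weights, and 3 under M-CSF with only those arrays in the fit. No member was called in all 3 populations, 6 were called in 2, 11 in 1 and 13 in none.

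**Figure D1:**
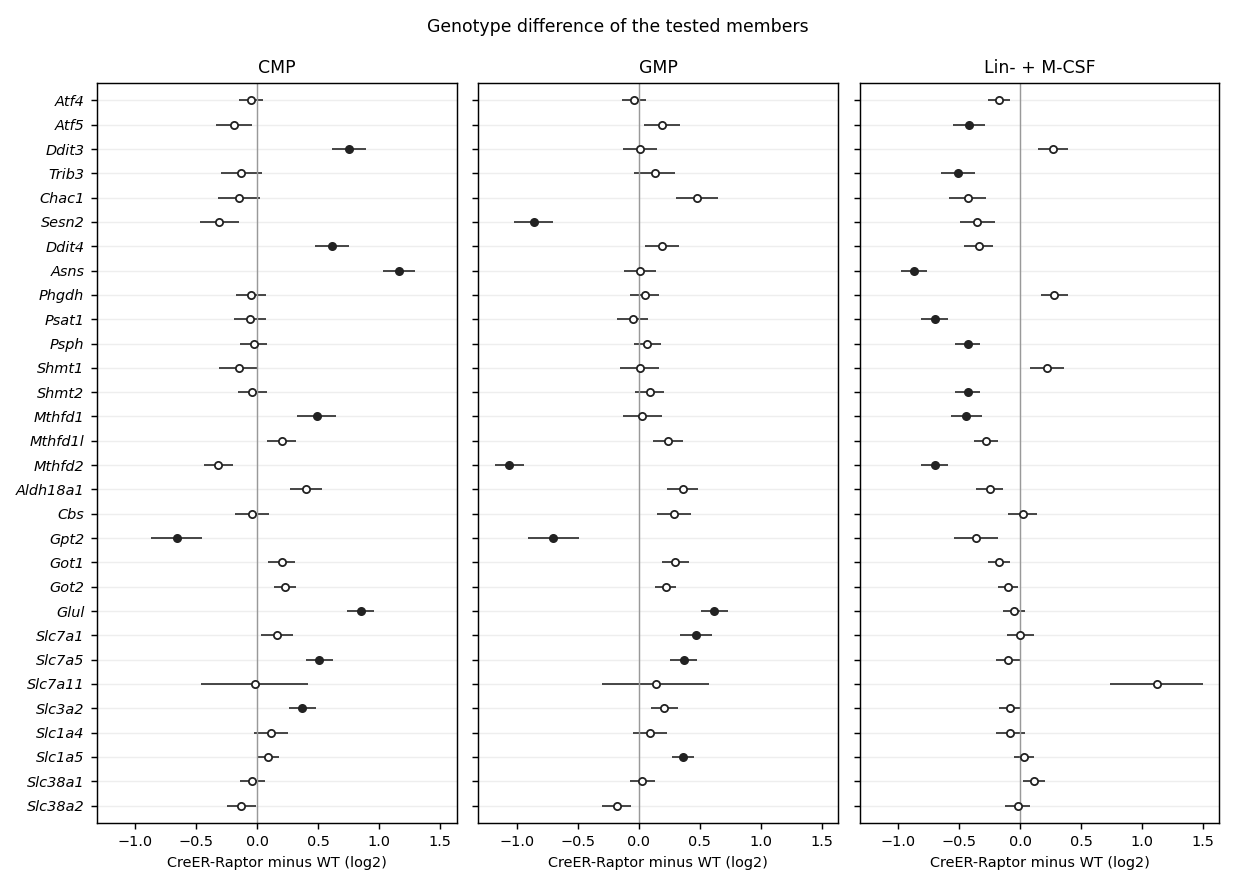
Difference between CreER-Raptor and WT (log2, horizontal axis) for the 30 tested members, 1 panel a population, with bars for 1 standard error of the model and filled points where the adjusted p is under 0.05. Filled points lie on both sides of 0 in CMPs (7 and 1) and GMPs (4 and 3), and all 8 lie below 0 under M-CSF.

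Markers of other cells moved with the genotype in the same samples. Of 7 tested erythroid genes, 6 rose in CreER-Raptor CMPs, 4 in GMPs and 6 under M-CSF, and the mean log2 level of the list ran from 8.23 to 8.47 in WT and from 9.50 to 10.12 in CreER-Raptor CMPs, from 5.26 to 5.54 and from 6.05 to 7.24 in GMPs, and from 5.04 to 5.44 and from 6.02 to 6.69 under M-CSF. Monocyte markers fell, 3, 4 and 5 of 6 in that order, with list means of 9.53 to 9.65 against 8.61 to 8.84 in CMPs, 9.84 to 9.94 against 8.89 to 9.04 in GMPs, and 10.04 to 10.35 against 9.14 to 9.25 under M-CSF. Neutrophil markers moved in part, with 5, 3 and 2 of 7 lower and 0, 1 and 0 higher. Of 4 eosinophil genes 2, 3 and 1 fell, and Epx fell by 3.35 in GMPs. Of 5 mast cell and basophil genes 3 rose in GMPs and 1 fell in CMPs and under M-CSF, and of 4 stem cell genes 2 rose in GMPs and 2 under M-CSF. Of 9 proliferation genes 1, 5 and 2 fell, and the list mean of GMPs ran from 9.78 to 9.92 in WT and from 9.21 to 9.42 in CreER-Raptor cells. The part of cell makeup in the changes below was not tested, and in sorted bulk RNA a change in the cells present and a change in RNA per cell cannot be told apart.

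Atf4, the transcription factor at the head of the group, was not called by genotype in any population. It read 10.37, 10.23 and 10.42 in WT and 10.26, 10.17 and 10.43 in CreER-Raptor CMPs, and 10.40, 10.30 and 10.39 against 10.41, 10.26 and 10.31 in GMPs. Under M-CSF it read 10.73, 10.84, 10.63 and 10.59 in WT and 10.58, 10.61, 10.58 and 10.34 in CreER-Raptor cells. The genotypes overlapped in all 3 populations, and under M-CSF 1 CreER-Raptor array, at 10.34, was low. The change was -0.05 (95% interval -0.27 to 0.16) in CMPs, -0.04 (-0.25 to 0.18) in GMPs and -0.17 (-0.36 to 0.02) under M-CSF, with limma adjusted p of 0.866, 0.900 and 0.247. ATF4 is controlled mostly at translation, so its mRNA does not report the protein, which was not measured here.

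Of the 7 stress factors and effectors, Ddit3 and Ddit4 rose in CMPs, Sesn2 fell in GMPs, and Atf5 and Trib3 fell under M-CSF. Ddit3, which encodes the transcription factor CHOP, read 7.27, 7.29 and 7.19 in WT CMPs and 7.85, 8.16 and 7.99 in CreER-Raptor CMPs. All 3 CreER-Raptor CMP arrays stood above all WT arrays, a rise of 0.75 ± 0.14 (adjusted p = 0.000615). In GMPs Ddit3 read 7.10, 7.29 and 7.22 in WT and 7.15, 7.54 and 6.96 in CreER-Raptor cells, and under M-CSF 8.81, 8.57, 8.88 and 8.62 and 9.07, 8.96, 8.75 and 9.17. Both of those pairs of groups overlapped, with changes of 0.01 and 0.27 that were not called. Ddit4 encodes REDD1, an inhibitor of mTORC1 that stress induces. In CMPs it read 4.92, 4.74 and 4.79 in WT and 5.30, 5.52 and 5.47 in CreER-Raptor cells, with no overlap and a rise of 0.61 ± 0.14 (adjusted p = 0.00438). The GMP values were 5.02, 4.79 and 5.14 against 5.22, 5.24 and 5.06, and those under M-CSF 5.84, 6.05, 6.38 and 5.93 against 5.94, 5.79, 5.66 and 5.45. Neither change was called, although the sign was positive in GMPs (0.19) and negative under M-CSF (-0.34, adjusted p = 0.0705 by limma).

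Sesn2 encodes Sestrin2, a leucine sensor that restrains mTORC1 when leucine is short. It read 6.52, 6.77 and 6.86 in WT GMPs and 5.93, 5.73 and 5.91 in CreER-Raptor GMPs, and every CreER-Raptor array was lower, a change of -0.86 ± 0.16 (adjusted p = 0.000678). In CMPs the values were 6.45, 6.20 and 6.40 against 5.78, 6.25 and 6.10, and under M-CSF 6.32, 6.30, 6.63 and 6.12 against 6.00, 5.96, 6.33 and 5.68. Those changes had the same sign, -0.31 and -0.35, with groups that overlapped, and were not called. Atf5, a relative of Atf4 that stress also induces, read 7.72, 6.83, 7.06 and 7.14 in WT and 6.79, 6.73, 6.6 and 6.93 in CreER-Raptor Lin- + M-CSF cells, a change of -0.42 ± 0.13 (adjusted p = 0.0391). Much of that fall came from WT replicate 1 at 7.72: without it the change was -0.25 (adjusted p = 0.123 by limma), and the call was also lost without WT replicate 4 or CreER-Raptor replicates 1, 2 or 3 (adjusted p 0.0585 to 0.108), with only the Lin- + M-CSF arrays in the fit (0.190) and with array weights (0.0846). The other Atf5 values were 6.17, 6.21 and 6.24 in WT and 6.08, 6.02 and 5.96 in CreER-Raptor CMPs, and 6.17, 6.10 and 6.12 and 6.16, 6.47 and 6.32 in GMPs, with changes of -0.19 and 0.19. Trib3, a pseudokinase that ATF4 and CHOP induce, read 5.28, 5.58, 5.47 and 4.84 in WT and 4.47, 4.81, 5.10 and 4.74 in CreER-Raptor cells under M-CSF. The groups overlapped, and the change of -0.51 ± 0.14 (adjusted p = 0.0222) was no longer called without WT replicate 2 (0.0746) or 3 (0.0642) or CreER-Raptor replicate 1 (0.0850), with only these arrays in the fit (0.120) or with array weights (0.0513). Its CMP values were 4.84, 4.89 and 4.64 against 4.79, 4.72 and 4.44 and its GMP values 4.92, 4.71 and 4.74 against 5.01, 4.98 and 4.77, all close to 5 and not called. Chac1, a glutathione-degrading enzyme, was not called in any population (changes of -0.15, 0.48 and -0.43).

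**Figure D2:**
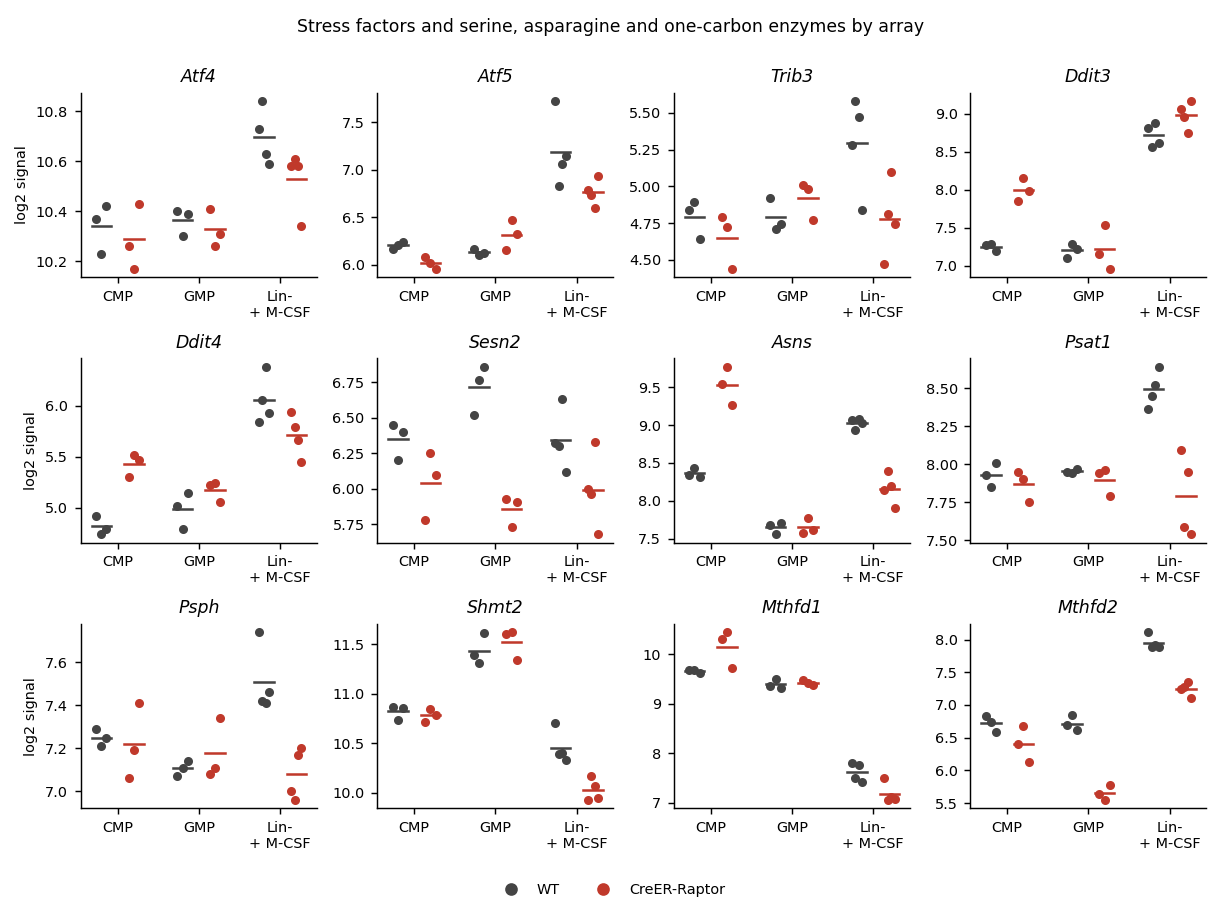
Log2 signal (vertical axis, a scale of its own in each panel) of 12 stress factors and serine, asparagine and one-carbon enzymes on every array, by population and genotype, with a bar at each group's mean. Asns stands higher in CreER-Raptor than in WT CMPs, level in GMPs and lower under M-CSF, while the Atf4 arrays of both genotypes overlap in every population.

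Asns, asparagine synthetase, changed most. It read 8.34, 8.44 and 8.31 in WT CMPs and 9.54, 9.77 and 9.26 in CreER-Raptor CMPs. In GMPs it read 7.68, 7.56 and 7.71 in WT and 7.58, 7.78 and 7.62 in CreER-Raptor cells. Under M-CSF the WT arrays read 9.07, 8.93, 9.08 and 9.03 and the CreER-Raptor arrays 8.14, 8.39, 8.20 and 7.90. Thus the CreER-Raptor arrays were all above WT in CMPs, mixed with WT in GMPs and all below WT under M-CSF. The change was 1.16 ± 0.13 (adjusted p = 1.5e-06) in CMPs, a 2.24-fold rise, 0.01 ± 0.13 (adjusted p = 0.973 by limma) in GMPs, and -0.87 ± 0.11 (adjusted p = 1.47e-05) under M-CSF, a 1.82-fold fall. Both calls held under every alternative tried.

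Asns is a well known ATF4 target. The RefSeq promoter windows (GRCm38.p6, 250 bases before to 50 after each gene's start) were searched on both strands for TGATGNAA, the composite C/EBP-ATF element that ATF4 binds with its partners (TTNCATCA on the other strand). The search found it in the windows of 7 of the 28 members with a window, 25% of them, against 4.51% of 27025 genes: Asns, Trib3, Chac1, Got1, Slc7a11, Slc1a4 and Pycr1. Genes of the ATF4 response are on the list by choice, so the higher share follows from the list and is no finding about these data. A match is letters only and does not show binding. In Asns it begins 23 bases before the start. The stretch of 130 bases that ends at the last base before the start, at chr6:7693210-7693339 on the minus strand, is shown 5′ to 3′ with the element in capitals, and lies upstream of the gene.
Asns: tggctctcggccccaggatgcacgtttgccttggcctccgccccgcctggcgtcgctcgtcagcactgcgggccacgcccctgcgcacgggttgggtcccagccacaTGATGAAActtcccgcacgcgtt

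Psat1 and Psph, which carry out the later steps of serine synthesis, fell under M-CSF and were not called in the sorted progenitors. Psat1 (phosphoserine aminotransferase) read 8.36, 8.45, 8.52 and 8.64 in WT and 8.09, 7.59, 7.95 and 7.54 in CreER-Raptor Lin- + M-CSF cells. No value overlapped, and the change was -0.70 ± 0.11 (adjusted p = 0.000184). In CMPs Psat1 read 7.93, 7.85 and 8.01 against 7.95, 7.90 and 7.75 and in GMPs 7.95, 7.94 and 7.97 against 7.94, 7.96 and 7.79, with changes of -0.06 and -0.05. Psph (phosphoserine phosphatase) read 7.74, 7.42, 7.41 and 7.46 in WT and 7.0, 6.96, 7.17 and 7.20 in CreER-Raptor cells under M-CSF, again apart on every array, a change of -0.43 ± 0.10 (adjusted p = 0.00622). Its CMP values were 7.29, 7.21 and 7.25 against 7.06, 7.19 and 7.41 and its GMP values 7.07, 7.11 and 7.14 against 7.08, 7.11 and 7.34, which overlapped. Phgdh, the first enzyme of the path, was not called: its change under M-CSF was 0.28 (adjusted p = 0.0929 by limma), from 7.21 to 7.52 in WT and 7.47 to 7.78 in CreER-Raptor cells, and it was -0.05 in CMPs and 0.05 in GMPs. With only the Lin- + M-CSF arrays in the fit Psph just missed the threshold (0.0515) and Psat1 kept its call.

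Among the folate enzymes, mitochondrial Mthfd2 fell in GMPs and under M-CSF, mitochondrial Shmt2 fell under M-CSF, and cytosolic Mthfd1 rose in CMPs and fell under M-CSF. Mthfd2, a dehydrogenase and cyclohydrolase of methylene-tetrahydrofolate, read 6.69, 6.84 and 6.62 in WT GMPs and 5.64, 5.55 and 5.77 in CreER-Raptor GMPs. Under M-CSF it read 8.11, 7.89, 7.91 and 7.89 in WT and 7.25, 7.28, 7.35 and 7.11 in CreER-Raptor cells. Both pairs of groups were far apart, with changes of -1.06 ± 0.12 (adjusted p = 3.57e-06) in GMPs, 2.09-fold, and -0.70 ± 0.11 (adjusted p = 0.000144) under M-CSF. In CMPs the values were 6.83, 6.74 and 6.59 against 6.40, 6.68 and 6.13, a change of -0.32 (adjusted p = 0.121 by limma) with overlap. In the GMPs, 5 of 9 proliferation genes were lower in the same CreER-Raptor arrays, and their part in the change was not tested.

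Shmt2, the mitochondrial serine hydroxymethyltransferase that turns serine into glycine, read 10.71, 10.39, 10.40 and 10.33 in WT and 9.93, 10.17, 10.07 and 9.95 in CreER-Raptor Lin- + M-CSF cells. All CreER-Raptor arrays were lower, a change of -0.43 ± 0.10 (adjusted p = 0.00698), which missed the threshold (0.0539) with only these arrays in the fit. Shmt2 read 10.87, 10.74 and 10.86 against 10.72, 10.85 and 10.79 in CMPs and 11.39, 11.31 and 11.61 against 11.60, 11.62 and 11.34 in GMPs, with changes of -0.04 and 0.09. Its cytosolic counterpart Shmt1 was not called (-0.15, 0.01 and 0.22). Mthfd1, the cytosolic enzyme with 3 activities on tetrahydrofolate, read 9.68, 9.69 and 9.61 in WT and 10.30, 10.44 and 9.72 in CreER-Raptor CMPs. It rose there by 0.49 ± 0.16 (adjusted p = 0.0424), although CreER-Raptor replicate 3 lay just above WT, and the call was lost without CreER-Raptor replicate 1 (0.167) or 2 (0.266) or without any 1 of the 3 WT arrays (0.0884 to 0.129), with only the CMP arrays in the fit (0.0866) or with no brightness limit (0.0523). Under M-CSF Mthfd1 read 7.81, 7.50, 7.77 and 7.41 in WT and 7.50, 7.06, 7.11 and 7.07 in CreER-Raptor cells, with overlap through CreER-Raptor replicate 1. That change of -0.44 ± 0.13 (adjusted p = 0.0364) was lost without WT replicate 1 (0.100) or 3 (0.0953) or CreER-Raptor replicate 2, 3 or 4 (0.0821 to 0.0942), with only these arrays in the fit (0.0933) or with array weights (0.138). In GMPs Mthfd1 read 9.36, 9.50 and 9.31 against 9.48, 9.41 and 9.38, a change of 0.03. Mthfd1l, the mitochondrial formyltetrahydrofolate synthetase, was not called (0.20, 0.24 and -0.28).

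Of the proline and transsulfuration enzymes no tested member was called by genotype. Aldh18a1, which makes the precursor of proline from glutamate, changed by 0.40 in CMPs and 0.36 in GMPs with every CreER-Raptor array above WT in both, but missed the threshold (limma adjusted p 0.0502 and 0.0793), and by -0.25 under M-CSF. Cbs, which joins homocysteine and serine, changed by -0.04, 0.29 and 0.02. Cth, under the brightness limit, read between 3.14 and 4.11 on all arrays and was not tested.

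Glul, glutamine synthetase, rose in both sorted progenitors and was not called under M-CSF. It read 8.92, 8.90 and 8.94 in WT and 9.69, 9.77 and 9.84 in CreER-Raptor CMPs. In GMPs it read 8.88, 8.83 and 9.07 in WT and 9.39, 9.62 and 9.61 in CreER-Raptor cells. No array overlapped in either population, and the rises were 0.85 ± 0.11 (adjusted p = 9.18e-06) and 0.62 ± 0.11 (adjusted p = 0.000425). Under M-CSF Glul read 9.03, 9.15, 9.03 and 9.04 in WT and 9.16, 8.89, 9.16 and 8.84 in CreER-Raptor cells, a change of -0.05 (0.804). The second, dimmer Glul probe set differed by 0.78, 0.40 and 0.05 between the genotypes, against 0.85, 0.62 and -0.05 for the first. Gpt2, the mitochondrial alanine aminotransferase, went the other way. It read 5.78, 5.54 and 5.95 in WT and 5.38, 5.14 and 4.77 in CreER-Raptor CMPs, and 5.81, 5.97 and 6.11 and 5.31, 5.69 and 4.80 in GMPs. The CreER-Raptor arrays were all lower, with changes of -0.66 ± 0.21 (adjusted p = 0.0461) and -0.70 ± 0.21 (adjusted p = 0.0344). Both calls rest on wide values: in CMPs the call was lost without WT replicate 1 or 3 or CreER-Raptor replicate 2 or 3 (adjusted p 0.105 to 0.215), with no brightness limit (0.0574), after repeated quantile normalization (0.0535) and with arrays centred on their median (0.0648), and in GMPs without any array but CreER-Raptor replicate 2 (0.0527 to 0.181; -0.46 without CreER-Raptor replicate 3). Under M-CSF Gpt2 read 5.31, 6.05, 6.01 and 5.65 against 5.55, 5.18, 5.59 and 5.28, a change of -0.36 with overlap. The aspartate aminotransferases Got1 (0.20, 0.30 and -0.17) and Got2 (0.23, 0.22 and -0.10) were not called.

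Among the 8 amino acid transporters, Slc7a5 rose in CMPs and GMPs, its partner Slc3a2 in CMPs, and Slc7a1 and Slc1a5 in GMPs, while none was called under M-CSF. Slc7a5 (LAT1), the carrier of leucine and other large neutral amino acids, read 9.91, 9.75 and 9.98 in WT and 10.48, 10.32 and 10.37 in CreER-Raptor CMPs, a rise of 0.51 ± 0.11 (adjusted p = 0.00347). In GMPs it read 9.88, 9.87 and 10.00 in WT and 10.32, 10.25 and 10.29 in CreER-Raptor cells, a rise of 0.37 ± 0.11 (adjusted p = 0.0345). Every CreER-Raptor array was above WT in both, though the GMP call was lost without any 1 array of GMPs other than WT replicate 3 (0.0646 to 0.125) and with arrays centred on their median (0.0713). Under M-CSF Slc7a5 read 10.55, 10.16, 10.42 and 10.14 against 10.12, 10.36, 10.24 and 10.13, with overlap. Slc3a2, the heavy chain (CD98) that brings LAT1 to the surface, read 9.38, 9.22 and 9.56 in WT and 9.83, 9.76 and 9.66 in CreER-Raptor CMPs, a rise of 0.37 ± 0.11 (adjusted p = 0.0287). That call was lost without WT replicate 1 or 2 or CreER-Raptor replicate 1 or 2 (0.0835 to 0.163) and with only the CMP arrays in the fit (0.0586). Its GMP values, 9.32, 9.35 and 9.41 against 9.60, 9.50 and 9.61, were also apart, but the change of 0.21 was not called (0.265). Under M-CSF Slc3a2 read 9.69, 9.38, 9.50 and 9.46 against 9.46, 9.57, 9.43 and 9.26, with overlap.

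Slc7a1 (CAT1), the arginine and lysine carrier, read 9.48, 9.23 and 9.57 in WT and 10.01, 9.93 and 9.75 in CreER-Raptor GMPs, which did not overlap, a rise of 0.47 ± 0.13 (adjusted p = 0.0168). The call was lost without WT replicate 2 (0.119) or CreER-Raptor replicate 1 (0.0854) or 2 (0.0642). Its CMP values were 9.0, 8.89 and 8.99 against 9.25, 9.05 and 9.07 and those under M-CSF 8.39, 7.89, 7.96 and 7.95 against 8.00, 8.04, 8.19 and 7.96. Slc1a5 (ASCT2), a glutamine carrier, read 10.34, 10.26 and 10.33 in WT and 10.76, 10.68 and 10.58 in CreER-Raptor GMPs, also apart, a rise of 0.36 ± 0.09 (adjusted p = 0.0138). The rise rests on 1 probe set: the second changed by -0.04, and their mean by 0.16 (0.487). It was also lost without WT replicate 2 (0.0687) or CreER-Raptor replicate 1 (0.0748). In CMPs Slc1a5 read 10.19, 10.07 and 10.25 against 10.22, 10.33 and 10.22 and under M-CSF 9.62, 9.41, 9.65 and 9.42 against 9.56, 9.56, 9.60 and 9.50. The neutral amino acid carriers Slc1a4, Slc38a1 and Slc38a2 changed by -0.18 to 0.11 in all populations and were not called.

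**Figure D3:**
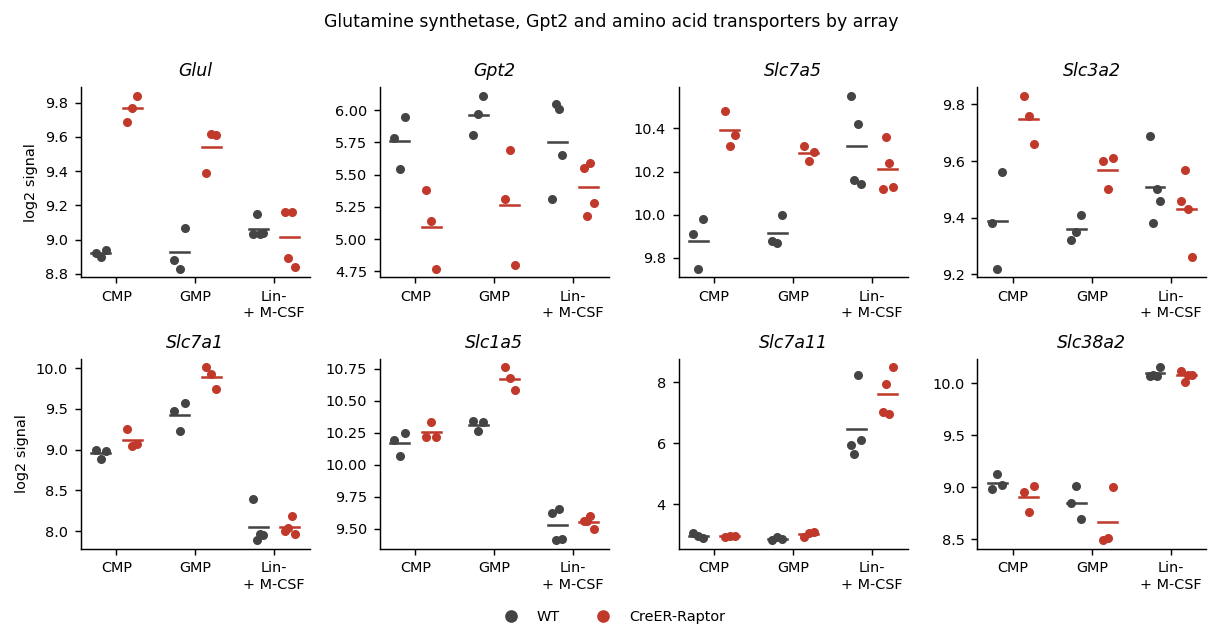
Log2 signal (vertical axis, a scale of its own in each panel) of Glul, Gpt2 and 6 amino acid transporters on every array, by population and genotype, with a bar at each group's mean. Glul is higher in CreER-Raptor than in WT CMPs and GMPs, and Slc7a11 is near 3 in all sorted progenitors and spread from 5.64 to 8.49 under M-CSF.

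Slc7a11 (xCT), the cystine and glutamate exchanger that feeds glutathione synthesis, was the member with the widest spread. Under M-CSF it read 5.95, 5.64, 8.24 and 6.11 in WT and 7.04, 7.94, 6.95 and 8.49 in CreER-Raptor cells. WT replicate 3 stood among the CreER-Raptor arrays, and the change of 1.12 ± 0.38 was not called (limma adjusted p = 0.0601). Without WT replicate 3 the change was 1.71 (6.68e-05), and it was also called without CreER-Raptor replicate 1 (0.0474) or 3 (0.0380); without any other 1 of the Lin- + M-CSF arrays the adjusted p ran from 0.138 to 0.183. The second Slc7a11 probe set gave a like difference of 1.03. In CMPs and GMPs of both genotypes Slc7a11 read 2.82 to 3.08, under the brightness limit, so the gene was tested only because of its level under M-CSF.

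The genotype change differed between populations for several members, by a test of the difference itself. Between Lin- + M-CSF cells and CMPs 7 of 30 members differed, all of them lower under M-CSF (23.3% against 7.77% of all genes, with 4.32% higher and 3.45% lower). They were Asns at -2.03 ± 0.17 (adjusted p = 8.32e-08), Ddit4 at -0.95 ± 0.18 (adjusted p = 0.00179), Mthfd1 at -0.93 ± 0.21 (adjusted p = 0.00549), Glul at -0.90 ± 0.14 (adjusted p = 0.000247), Aldh18a1 at -0.65 ± 0.17 (adjusted p = 0.0195), Psat1 at -0.63 ± 0.17 (adjusted p = 0.0195) and Slc7a5 at -0.61 ± 0.15 (adjusted p = 0.0108). The calls of Psat1 and Aldh18a1 were lost without CreER-Raptor CMP replicate 1 or 2 or WT CMP replicate 2 (0.0531 to 0.0748), and that of Psat1 with only the compared groups in the fit (0.0533). In the same test 6 of 6 progenitor markers differed upward, and of 7 neutrophil markers 4 differed upward and 1 downward. Upward calls also came from 2 of 5 T and NK and 2 of 4 stem cell genes. Of 5 megakaryocyte, 4 eosinophil and 5 B lineage genes, 1 each differed upward. Of 6 monocyte genes 1 differed upward and 1 downward, and 1 of 7 erythroid genes differed downward. The part of these markers was not tested. Between GMPs and CMPs 3 members differed (10.0% against 2.50%, with 0.667% higher and 1.83% lower). These were Asns at -1.14 ± 0.18 (adjusted p = 0.000755), Mthfd2 at -0.75 ± 0.18 (adjusted p = 0.0226) and Ddit3 at -0.74 ± 0.19 (adjusted p = 0.0475). In that test 3 of 9 proliferation genes differed downward, and 2 of 7 neutrophil and 1 of 4 stem cell genes upward. Of 6 monocyte genes 1 differed upward and 2 downward, and the part of all these markers was not tested. The call of Ddit3 was lost without any 1 CMP or GMP array other than CreER-Raptor GMP replicate 2 (0.0505 to 0.159), with no brightness limit (0.0576) and after repeated quantile normalization (0.0990). Mthfd2 lost its call without CreER-Raptor CMP replicate 1 or 2, WT CMP replicate 3, CreER-Raptor GMP replicate 1 or 2 or WT GMP replicate 2 (0.0514 to 0.0861). The number called was 1 without CreER-Raptor CMP replicate 1 or 2, WT CMP replicate 3, CreER-Raptor GMP replicate 1 or WT GMP replicate 2, and Asns held in all of these. Between Lin- + M-CSF cells and GMPs 5 members differed (16.7% against 4.77%, with 2.93% higher and 1.83% lower). Chac1 led at -0.91 ± 0.23 (adjusted p = 0.0242), followed by Asns at -0.88 ± 0.17 (adjusted p = 0.00272), Glul at -0.66 ± 0.14 (adjusted p = 0.00714), Psat1 at -0.64 ± 0.17 (adjusted p = 0.0283) and Aldh18a1 at -0.61 ± 0.17 (adjusted p = 0.0418). Here 3 of 7 neutrophil markers differed upward and 2 downward. Upward calls also came from 2 of 6 progenitor, 1 of 6 monocyte, 1 of 5 T and NK and 1 of 9 proliferation genes. Downward were 1 of 5 mast cell and basophil and 1 of 4 stem cell genes. The part of these genes was not tested either. Aldh18a1 lost its call without WT or CreER-Raptor GMP replicate 1 or 2, WT Lin- + M-CSF replicate 1 or 2 or CreER-Raptor Lin- + M-CSF replicate 2 or 4 (0.0551 to 0.121), with only the compared groups in the fit (0.0614) and with median-centred arrays (0.0730). Psat1 lost it without any 1 GMP array other than CreER-Raptor replicate 3, without WT Lin- + M-CSF replicate 4 or CreER-Raptor Lin- + M-CSF replicate 2 (0.0526 to 0.0774) and with only the compared groups in the fit (0.0645). Chac1 lost it without CreER-Raptor GMP replicate 2 or WT GMP replicate 1 or 2 (0.0597 to 0.0921), and Glul in the mean of its probe sets (0.0836). The count of 5 was 2 without WT GMP replicate 1 or 2 or CreER-Raptor GMP replicate 2, and 3 without CreER-Raptor GMP replicate 1. Atf4 was not called in any of the 3 (0.02, -0.12 and -0.13, with adjusted p of 0.982, 0.748 and 0.683). These 3 tests share arrays pairwise, so they are not independent of each other. For each gene the difference between Lin- + M-CSF cells and CMPs is the sum of the other differences.

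**Figure D4:**
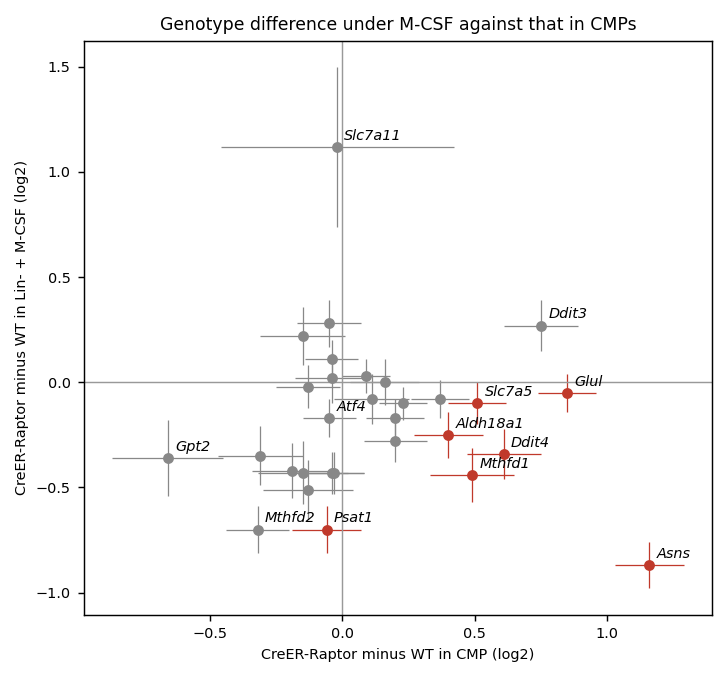
Difference between CreER-Raptor and WT (log2) under M-CSF (vertical axis) against that in CMPs (horizontal axis) for the 30 tested members, with bars for 1 standard error. The 7 members in red differ between the populations at an adjusted p under 0.05, and Asns lies farthest to the lower right, at 1.16 in CMPs and -0.87 under M-CSF.

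In WT cells few of these genes were called between the sorted progenitors. Between WT GMPs and WT CMPs 4 of 30 members were called (13.3% against 11.0% of all genes; 3 higher against 6.65% and 1 lower against 4.35%). Asns was lower in GMPs, at -0.72 ± 0.13 (adjusted p = 0.000798), with group means of 7.65 and 8.36. Shmt2 was higher by 0.61 ± 0.12 (adjusted p = 0.00162), Slc7a1 by 0.47 ± 0.13 (adjusted p = 0.0205) and Got2 by 0.36 ± 0.09 (adjusted p = 0.0181). The count fell to 2 without WT CMP replicate 2 or WT GMP replicate 1 or 3, each of which lost Slc7a1 and Got2 (0.0506 to 0.128). Got2 was also lost without WT CMP replicate 1 or 3 (0.0623 and 0.0515) and in the mean of its probe sets (0.626), while Asns and Shmt2 held throughout. In CreER-Raptor cells the means of Asns were further apart, 7.66 in GMPs and 9.52 in CMPs. In the same WT comparison 7 of 7 erythroid genes were lower in GMPs (median -3.42), as were 3 of 4 stem cell genes and 2 of 5 megakaryocyte genes, while 3 of 4 eosinophil and 4 of 6 monocyte genes were higher, and their part in these differences was not tested.

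WT Lin- + M-CSF cells stood apart from both progenitors, with 6 of 7 stress factors and effectors, Asns, Psat1 and Mthfd2 higher and most folate enzymes lower. Against WT CMPs 24 of 30 members were called, 15 higher and 9 lower (80.0% against 55.6% of all genes; 19.6% higher and 36.0% lower), and against WT GMPs 26, 15 and 11 (86.7% against 56.3%; 20.3% and 36.1%). Slc7a11 passed the brightness limit through this group alone and so had to differ, which leaves 14 higher of 29 in each. The median gene lay 0.14 lower under M-CSF in both comparisons, and the values below are as fitted and are to be read against it. In the comparison with WT CMPs cell type markers moved as well. Of these, 7 of 7 neutrophil, 4 of 5 B lineage and 3 of 4 eosinophil genes were higher. Of 6 monocyte genes 3 were higher and 1 lower, and of 5 mast cell and basophil genes 3 were higher and 1 lower. The lower ones also included 7 of 7 erythroid, 6 of 6 progenitor, 3 of 5 megakaryocyte and 1 of 4 stem cell genes. Neutrophil list means ran from 9.32 to 9.56 in WT CMPs and from 10.64 to 11.89 under M-CSF, and erythroid ones from 8.23 to 8.47 and from 5.04 to 5.44. Their part was not tested, and population, culture and any difference in array handling cannot be told apart here.

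Of the 7 stress factors and effectors 6 were higher under M-CSF than in CMPs. Ddit3, whose WT CMP and Lin- + M-CSF values are given above, was higher by 1.47 ± 0.13 (adjusted p = 4.49e-09). Ddit4 was higher by 1.23 ± 0.13 (adjusted p = 6.53e-08) and Chac1 by 1.16 ± 0.16 (adjusted p = 3.35e-06), from 4.83, 5.37 and 5.33 in WT CMPs to 6.42, 6.30, 6.20 and 6.44 under M-CSF. Atf5 was higher by 0.98 ± 0.14 (adjusted p = 5.26e-06), Trib3 by 0.51 ± 0.16 (adjusted p = 0.0086) and Atf4 itself by 0.36 ± 0.10 (adjusted p = 0.00384). Sesn2 differed by -0.01 from CMPs. Against WT GMPs Sesn2 was called lower, a call lost without several single arrays and after a repeated quantile normalization (limma adjusted p 0.18). Asns was higher by 0.66 ± 0.12 (adjusted p = 5.95e-05) than in CMPs and by 1.38 ± 0.12 (adjusted p = 2.44e-09) than in GMPs, so that WT cells under M-CSF had the highest WT level. Psat1 was higher by 0.56 ± 0.12 (adjusted p = 0.00037) and Psph by 0.26 ± 0.11 (adjusted p = 0.044), the latter not called without Lin- + M-CSF replicate 1 or 4 or any 1 CMP array (0.0512 to 0.151), with no brightness limit (0.0503), with only the compared groups in the fit (0.0733) or with a trended and robust eBayes (0.0546). Phgdh was lower, at -0.31 ± 0.12 (adjusted p = 0.0301), not called without Lin- + M-CSF replicate 2 or 4 or CMP replicate 1 or 3 (0.0684 to 0.132), after a repeated quantile normalization (0.313), with median-centred arrays (0.0862) or with only the compared groups in the fit (0.0507).

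The folate enzymes divided. Mthfd2 was higher under M-CSF by 1.23 ± 0.12 (adjusted p = 1.37e-08), while the other 4 were lower: Mthfd1 at -2.04 ± 0.15 (adjusted p = 1.99e-10), Mthfd1l at -0.90 ± 0.11 (adjusted p = 6.37e-07), Shmt1 at -0.67 ± 0.15 (adjusted p = 0.000626) and Shmt2 at -0.36 ± 0.11 (adjusted p = 0.00725). The level of Mthfd1 was 4.11-fold lower than in CMPs. Proliferation genes were lower in the same arrays, 5 of 9 called lower and 1 higher, with list means of 9.75 to 9.79 in WT CMPs and 9.05 to 9.25 under M-CSF; their part was not tested. Of the aminotransferases, Got1 was higher by 0.73 ± 0.10 (adjusted p = 3.01e-06) and Got2 lower, at -1.26 ± 0.09 (adjusted p = 1.61e-10). A second, dim Got2 probe set read 4.25 in WT CMPs and 5.09 under M-CSF, and the mean of both was not called (-0.21, 0.121).

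Transporters went both ways. Slc7a11 read 3.04, 2.97 and 2.89 in WT CMPs, all under the brightness limit of 3.86, and 5.64 to 8.24 under M-CSF, and no size or test of that difference is given since the gene passed the limit through the culture alone. Slc38a2 (SNAT2), which amino acid lack induces, was higher by 1.05 ± 0.11 (adjusted p = 7.53e-08), from 8.98, 9.13 and 9.02 to 10.07, 10.08, 10.07 and 10.15. Slc7a5 was higher by 0.44 ± 0.10 (adjusted p = 0.00127) and Slc1a4 by 0.35 ± 0.13 (adjusted p = 0.0297), the latter not called without any 1 CMP array or Lin- + M-CSF replicate 1, 2 or 3 (0.0523 to 0.0835). Slc7a1 was lower, at -0.91 ± 0.12 (adjusted p = 1.22e-06) and Slc38a1 (SNAT1), at -0.60 ± 0.09 (adjusted p = 1.16e-05). The probe set of Slc1a5 was lower, at -0.65 ± 0.09 (adjusted p = 2.33e-06), but the second Slc1a5 probe set rose from 5.80 to 9.09, and the mean of the 2 was higher under M-CSF by 1.33 (3.24e-09), so the direction of Slc1a5 is not settled. Glul likewise differed by 0.14 (0.240) on the probe set kept, while the second read 4.50 in WT CMPs and 9.10 under M-CSF.

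**Figure D5:**
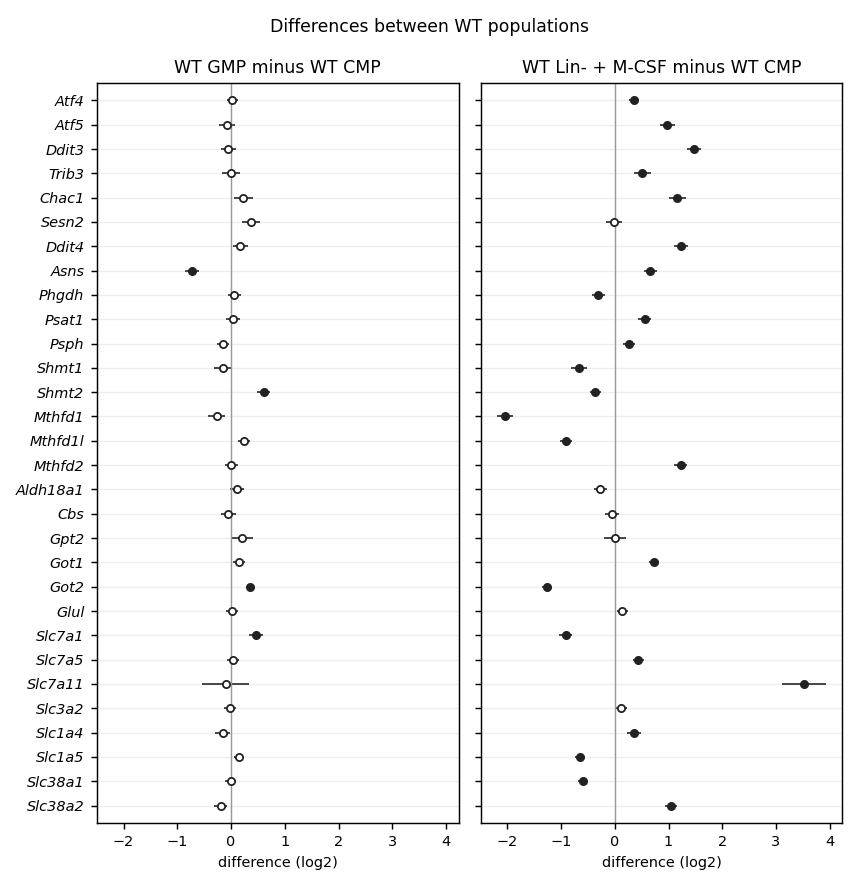
Differences in WT cells (log2, horizontal axis) of the 30 tested members, between GMPs and CMPs (left) and between Lin- + M-CSF cells and CMPs (right), with bars for 1 standard error and filled points where the adjusted p is under 0.05. On the left 4 points are filled, and on the right 24, from -2.04 for Mthfd1 to 1.47 for Ddit3 apart from Slc7a11, whose point far to the right belongs to a gene under the brightness limit in CMPs.

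The members whose promoter window holds TGATGNAA can be set beside these values. Slc7a11, dim in all sorted cells, is left out of the counts. Of the other 5 tested (Trib3, Chac1, Asns, Got1 and Slc1a4), 5 were higher in WT Lin- + M-CSF cells than in WT CMPs, with a median difference of 0.66. Of the 21 members whose windows lack it 8 were higher and 7 lower, with a median of 0.00. Over all genes tested and not dim in every sorted group, 20.6% of the 403 with the element were higher and 29.5% lower, with a median of -0.13, and of the 12460 without it 19.3% and 36.7%, with a median of -0.14. By genotype, of the same 5, Asns rose in CMPs, Asns and Trib3 fell under M-CSF, and no other was called. The call of Slc1a4 against WT CMPs was lost without several single arrays, as given above. Genes of the ATF4 response are on the list by choice, and the members are not replicates of each other. The part of the element in these values was not tested. The stretches upstream of the gene start are shown for Slc7a11, Chac1 and Got1, 5′ to 3′ with the element in capitals. That of Slc7a11 holds it on both strands, beginning 66 and 47 bases before the start (chr3:50443614-50443743, minus strand). That of Chac1 begins 193 bases before (chr2:119351029-119351241, plus strand) and that of Got1 102 bases before (chr19:43524606-43524735, minus strand).
Slc7a11: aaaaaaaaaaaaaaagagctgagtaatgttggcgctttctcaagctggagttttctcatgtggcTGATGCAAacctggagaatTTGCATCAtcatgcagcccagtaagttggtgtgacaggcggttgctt
Chac1: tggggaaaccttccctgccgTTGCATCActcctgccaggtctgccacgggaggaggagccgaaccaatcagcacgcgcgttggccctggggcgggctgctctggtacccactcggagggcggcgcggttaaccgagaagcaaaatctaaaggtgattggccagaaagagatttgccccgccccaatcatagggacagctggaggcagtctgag
Got1: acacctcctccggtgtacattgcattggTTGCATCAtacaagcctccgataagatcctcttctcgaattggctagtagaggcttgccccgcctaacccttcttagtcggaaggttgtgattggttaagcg

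Other genes of the pathway were taken from lists of their own, whose counts stand beside 11.4%, 11.9% and 12.5% of all genes tested called by genotype in CMPs, GMPs and under M-CSF. Of 7 eIF2 kinases and regulators, Ppp1r15a (GADD34), which helps remove the phosphate from eIF2, rose by 0.70 ± 0.16 in CMPs and 0.63 ± 0.14 under M-CSF, and its relative Ppp1r15b by 0.35 ± 0.11 in CMPs and 0.45 ± 0.11 in GMPs. The haem-sensing kinase Eif2ak1 fell by 0.63 ± 0.15 in GMPs, and the amino acid sensor Eif2ak4 (GCN2) rose by 0.34 ± 0.10 under M-CSF. Of 11 further ATF4 partners and targets, Eif4ebp1, a translation repressor that mTORC1 inactivates, rose by 0.52 ± 0.12 in CMPs. The stress protein gene Nupr1 rose by 0.65 ± 0.18 in GMPs and fell by 1.08 ± 0.16 under M-CSF, and Cebpg, a partner of ATF4, fell by 0.42 ± 0.14 in GMPs. The 18 cytosolic aminoacyl-tRNA synthetases, many of them ATF4 targets in other cells, had 0 calls by limma in CMPs and GMPs and 1 under M-CSF, Wars, which fell by 0.50 ± 0.11.

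Of 17 other folate, glycine and methyl cycle genes, 3 rose and 1 fell in CMPs, 3 rose and 2 fell in GMPs, and 3 rose and 2 fell under M-CSF (11.4%, 11.9% and 12.5% of all genes were called in either direction). Fpgs, which adds glutamates that keep folate in the cell, rose in all 3 populations, by 0.74 ± 0.13, 0.51 ± 0.13 and 0.60 ± 0.11, and Ggh, which removes them, fell by 0.59 ± 0.13 in GMPs and fell by 0.67 ± 0.11 under M-CSF. Mthfd2l, the close relative of Mthfd2, rose in all 3, by 0.59 ± 0.17, 0.68 ± 0.17 and 0.84 ± 0.14, and thus opposite to Mthfd2 in GMPs and under M-CSF. Aldh1l1, which oxidizes formyltetrahydrofolate, fell by 0.76 ± 0.14 in CMPs and 0.62 ± 0.14 in GMPs. Of 5 glutathione genes Gclm, the regulatory subunit of the first enzyme, rose by 0.87 ± 0.15 in CMPs and 1.01 ± 0.15 in GMPs, Gsr fell by 0.49 ± 0.14 in CMPs, and none was called under M-CSF.

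Of 14 other amino acid enzymes, Oat rose by 0.56 ± 0.14 in CMPs, Odc1, the first enzyme of polyamine synthesis, by 0.40 ± 0.12 in CMPs and 0.38 ± 0.12 in GMPs, and Prodh by 0.46 ± 0.15 in GMPs, with none called under M-CSF. Of 14 other amino acid transporters 2 rose and 3 fell in CMPs, 1 rose and 3 fell in GMPs, and 1 rose and 2 fell under M-CSF (against the same 11.4%, 11.9% and 12.5% of all genes). Slc38a9, a lysosomal arginine sensor that acts on mTORC1, rose by 0.98 ± 0.14 in CMPs and fell by 0.50 ± 0.14 in GMPs. Slc7a7, which exports cationic amino acids and is high in macrophages, fell by 1.31 ± 0.14 in GMPs and 0.68 ± 0.12 under M-CSF, in arrays where 4 and 5 of 6 monocyte markers also fell. The leucine carrier Slc43a2 fell by 0.86 ± 0.14 in CMPs and 0.47 ± 0.14 in GMPs, while its relative Slc43a1 rose by 0.62 ± 0.14 in CMPs and 0.69 ± 0.12 under M-CSF.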

How the data were processed

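Total RNA (1 to 5 ng) from sorted cells was amplified and hybridized to whole-transcript arrays, per the labels' protocols. The deposited values are log2 signals per probe set (1.77 to 13.2). RMA, Partek 6.6 and limma appear in the submitters' processing notes, with no role given, and joint normalization of the 20 arrays is not stated in the sources used here. Medians of the arrays ran from 4.76 to 4.91. The number of arrays limits the precision, and detection above background was not assessed.

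The platform annotation gives 1 symbol for 23521 of 41345 probe sets and several for 1814, and 16010 were unnamed here. The probe set of highest mean over all arrays was kept for each of 22180 genes, and 16638 genes were tested, those reaching the 25th percentile of single-gene probe sets (log2 3.86) on average. Groups follow the sample titles. One limma 3.58.1 fit (R 4.3.3) held all 20 arrays with a mean for each of the 6 groups, 14 residual degrees of freedom and eBayes without trend, and gave 9 comparisons. The Benjamini-Hochberg adjustment ran over 16638 genes, and adjusted p-values are meant also where a bare number in parentheses follows a left-out array or another setting. Values after ± are standard errors of the model.

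The members and gene lists were chosen with earlier results of these data known. Array values are printed for Atf4 and for members called in at least 1 genotype comparison, and from each list at most 4 called genes of smallest p are named per comparison. The alternatives were the filter dropped or set at the 50th percentile, probe sets of a gene averaged, a fit of the compared groups alone, the replicate number as a block, quantile normalization repeated, median-centred arrays, array weights, a trended and robust eBayes, and each array left out in turn. Promoter windows and coordinates are those of RefSeq on GRCm38.p6.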

Additional observations from a re-analysis of the deposited data

Results flagged for a closer look

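Each of the 31 members with a probe set was checked in the WT and in the CreER-Raptor Lin- + M-CSF group, which have 4 arrays each. In 8 of these 62 sets of values a single array stood far from the other 3. The limit used is passed by about 1 in 20 sets of independent values. The 62 sets come from the same arrays and are not independent, so the count cannot be held against that share. In WT Lin- + M-CSF cells replicate 1 was the high one for Psph (7.74), Shmt2 (10.71), Mthfd2 (8.11) and Slc7a1 (8.39), replicate 2 for Glul (9.15) and replicate 4 for Slc38a2 (10.15). In CreER-Raptor Lin- + M-CSF cells replicate 1 was high for Mthfd1 (7.50) and replicate 4 low for Atf4 (10.34). Without WT replicate 1, 7 rather than 8 members were called lower in CreER-Raptor cells under M-CSF. Atf5 (limma adjusted p 0.123) and Mthfd1 (0.1) lost their calls, so the 7 are not all among the 8. The Glul and Slc38a2 groups were narrow, so their gaps are small.

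The genotype change differed between populations, by limma's test of the difference, for 10 members. From CMPs to Lin- + M-CSF cells the difference was -2.03 for Asns, -0.95 for Ddit4, -0.93 for Mthfd1, -0.90 for Glul, -0.65 for Aldh18a1, -0.63 for Psat1 and -0.61 for Slc7a5. From CMPs to GMPs it was -1.14 for Asns, -0.75 for Mthfd2 and -0.74 for Ddit3. From GMPs to Lin- + M-CSF cells it was -0.91 for Chac1, -0.88 for Asns, -0.66 for Glul, -0.64 for Psat1 and -0.61 for Aldh18a1. All 15 have the same sign, and the 3 comparisons share arrays. They are not independent: for each gene the difference from CMPs to Lin- + M-CSF cells is the sum of the other differences. Several genes, Asns among them, are in more than 1 of the comparisons.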

How the results depend on the processing

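Of 92 member calls over the 9 comparisons, 60 held under every alternative run. Among them were Asns, Glul, Ddit3, Ddit4 and Slc7a5 in CMPs, Mthfd2, Sesn2 and Glul in GMPs, and Asns, Psat1 and Mthfd2 under M-CSF. Both counts include the calls of Slc7a11 between WT Lin- + M-CSF cells and each WT progenitor. Slc7a11 passed the brightness limit through the culture alone and had to differ there, so that these calls held is no result. The 2 reversals were Slc1a5 between WT Lin- + M-CSF cells and WT CMPs (1.33) or GMPs (0.99) when its probe sets are averaged. The number of members called by genotype in GMPs went from 7 to 14 with array weights, and that under M-CSF from 8 to 3 with only those arrays in the fit. Between GMPs and CMPs array weights gave 5 differing members instead of 3. Between Lin- + M-CSF cells and GMPs 5 became 9 with a 50th percentile filter or repeated quantile normalization, 8 with a trended and robust eBayes, 12 with array weights and 3 with only those groups in the fit. The cause was not tested.

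Leaving out 1 array at a time gave 5 to 8 called members in CMPs (5 without WT replicate 1), 3 to 8 in GMPs (3 without CreER-Raptor replicate 1 or WT replicate 2), 7 to 9 under M-CSF, 2 to 4 between WT GMPs and CMPs, 1 to 3 between the genotype changes of GMPs and CMPs, 5 to 9 between those of Lin- + M-CSF cells and CMPs, and 2 to 7 between those of Lin- + M-CSF cells and GMPs.

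A block for the replicate number left 6, 4 and 7 called members in CMPs, GMPs and under M-CSF, and 2, 5 and 3 in the tests between populations. By genotype it lost Gpt2 and Slc3a2 in CMPs (limma adjusted p 0.0812 for both). In GMPs it lost Gpt2 (0.0657), Slc7a5 (0.083) and Slc1a5 (0.0532), and under M-CSF Atf5 (0.0513). Ddit3 was lost between GMPs and CMPs (0.089). Psat1 and Aldh18a1 were lost between Lin- + M-CSF cells and CMPs (0.0672 and 0.0573). Both were also lost between Lin- + M-CSF cells and GMPs (0.091 and 0.105). WT populations could not be compared with the block. Same-numbered arrays of WT and CreER-Raptor cells correlated at -0.34 to 0.12 in their deviations, and differently numbered ones at -0.19 to 0.34. The labels do not say what a replicate number shares, so whether the numbers pair the samples is not known.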

Other observations

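The 2 probe sets of a member did not always read alike across populations. The brighter Glul probe set averaged 8.92 in WT CMPs and 9.06 in WT Lin- + M-CSF cells, and the other 4.50 and 9.10. For Slc1a5 the brighter set averaged 10.17 and 9.52, and the other 5.80 and 9.09. For Slc7a11 both were higher under M-CSF, at 2.96 and 6.48 for one and 3.44 and 5.46 for the other. By genotype the second Glul set changed by 0.78 in CMPs and 0.40 in GMPs, against 0.85 and 0.62 for the first. Other pairs differed more: in GMPs Slc1a5 changed by 0.36 on the brighter set and -0.04 on the other. In CMPs Got2 changed by 0.23 on the brighter set and 0.03 on the other. The sources used here do not say which parts of the transcripts the probe sets read.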
